A study of Mus musculus with 4 samples.

Results

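The proteasome genes of mouse acute myeloid leukemia (AML) cells were described here by the open chromatin at their promoters. The members were the protein-coding genes of GENCODE release M21 whose symbols begin with Psma, Psmb, Psmc, Psmd, Psme, Psmf or Psmg. The rule found 50 of 21938 protein-coding genes on the autosomes, X and Y. Of these, Psmc3ip, which encodes a meiotic recombination factor, and Psme2b, a copy of Psme2, share the prefix without being standard subunits, and they are named apart below. The symbols alone chose the members, so no measured value entered the rule, but the rule was set with earlier results of these data known.

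DNase-seq, which sequences the ends that the nuclease DNase I cuts in accessible chromatin, was carried out on AML cells of strain C57BL/6J labelled as differentiated in vitro, with no treatment, control, age or sex given. There were 2 biological replicates with 2 technical libraries each, and both replicates carry the same donor label. The authors had pooled the libraries of a replicate, so every value below comes from 1 peak list and 1 hotspot list per biological replicate and has no replicate error, and no test between groups was possible. Replicate 1 had 236802 peaks and 202621 hotspots, and replicate 2 had 67564 peaks and 61915 hotspots. A peak is a window of 150 bp with a deposited score, which ran up to 150 in replicate 1 and, on the chromosomes used, up to 138 in replicate 2. A hotspot is a wider region with a deposited −log10 q of at most 100. The sources used here give neither the sequencing depth nor the scale of the score, so scores were compared only within a list, as percentile ranks in which 100 is the strongest. The labelled cell type was checked on marker genes. Of 12 myeloid markers 11 had a shared promoter peak, as defined below for the members, against 57.7% of all protein-coding genes, and the granule protease gene Elane had a promoter peak in replicate 1 only. Their median mean rank was 83.9, below the 92.8 of all coding genes with a shared promoter peak. The T cell and liver markers had a shared promoter peak at 0 of 4 each, and the B cell and erythroid markers at 1 of 4 each, Pax5 and Epor. In the longer replicate 1 list, 3 of 4 B cell, 3 of 4 erythroid, 1 of 4 T cell and 1 of 4 liver markers had a promoter peak.

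The proteasome is the protease that degrades ubiquitin-tagged proteins. Its 20S core is a barrel of alpha and beta rings, in which the catalytic beta subunits of the constitutive form are encoded by Psmb5, Psmb6 and Psmb7. The 19S cap unfolds substrates with a ring of ATPases and removes their ubiquitin. Interferon-gamma induces the alternative catalytic subunits encoded by Psmb8, Psmb9 and Psmb10, which build the immunoproteasome, and the PA28 activator encoded by Psme1 and Psme2. Cells of the blood lineages are known to carry immunoproteasomes without induction, and these particles shape the peptides that MHC class I molecules present.

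Nearly every gene of the complex had open chromatin at its promoter in both replicates. A promoter peak is a peak within 1 kb of any annotated transcription start of the gene, and a shared promoter peak is a replicate 1 window that overlaps a replicate 2 window by at least 1 bp. Of the 50 members, 46 (92%) had a shared promoter peak, against 57.7% of all protein-coding genes. A promoter peak was found in replicate 1 at 47 members, against 70.5% of coding genes, and in replicate 2 at 47 members, against 58.3%. The same 47 had a peak in each list when no overlap was asked (58.2% of coding genes) and a promoter hotspot in both lists (58.4% of coding genes). At all 47 a hotspot reached the ceiling of 100 in both lists, while 64.4% of coding genes had such a hotspot in replicate 1 and 48.5% in replicate 2.

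The proteasome promoter peaks also sat high in the lists. The mean percentile rank of the strongest shared promoter peak had a median of 95.0 over the 46 members, with quartiles of 92.4 and 96.9 and a range of 84.5 to 99.6. Over the 12658 coding genes with a shared promoter peak the median was 92.8 and the quartiles were 83.5 and 96.7. The upper quartiles of members and of all genes lay close together, while the lower quartile of the members was higher. The peak ranked above the median of all such genes at 32 of the 46 members with one, against 6319 of the 12658 genes. The median itself sets the latter split. Over all members this was 32 of 50 (64%), against 28.8% of all coding genes. There, genes without a shared promoter peak count as not above the median, so these shares also reflect how many genes have one. Median scores at the members were 147 in replicate 1 and 84.5 in replicate 2, against 145 and 75 over all coding genes with a shared promoter peak. The top replicate 1 score of 150 was reached at 11 of 46 members (23.9%), against 13.2% of those genes. Across the 46 members Spearman's rho between replicate 1 and replicate 2 scores was 0.727, against 0.841 across all 12658 genes. This is a description across genes, which are not replicates and whose scores are compressed near the top of the replicate 1 scale.

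**Figure D1:**
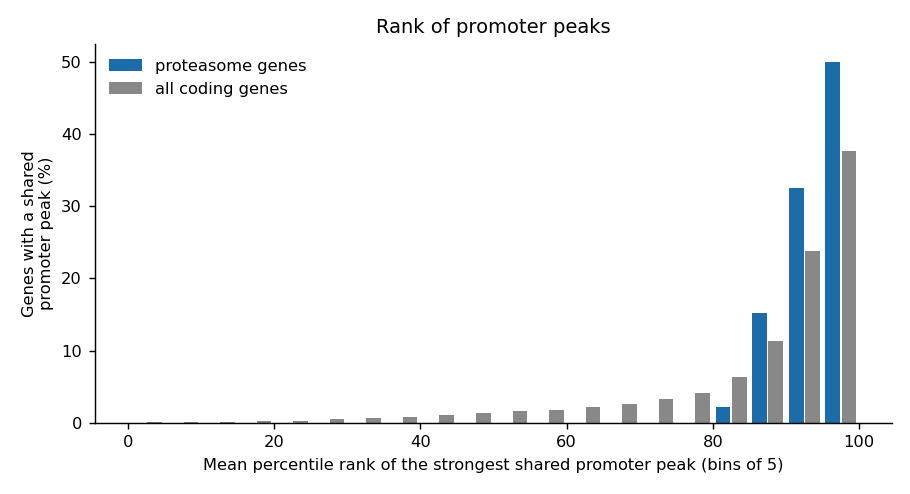
Share of genes (%, vertical axis) in each bin of 5 of the mean percentile rank of the strongest shared promoter peak (horizontal axis), for 46 proteasome genes and for 12658 coding genes. All members with a shared promoter peak lie in the 4 highest bins, with 50% of members and 37.7% of all genes in the top bin.

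The genes of the immunoproteasome had open promoters in these cells, as did those of the constitutive catalytic subunits. Psmb8, which encodes the chymotrypsin-like immunosubunit, scored 146 in replicate 1 and 73 in replicate 2 at its strongest shared promoter peak. Psmb10, which encodes the immunosubunit that replaces Psmb7, scored 143 and 70 in replicates 1 and 2. Psmb9, which encodes the one that replaces Psmb6, scored 147 in replicate 1 and 94 in replicate 2, the highest rank of the 3, but its windows did not overlap. Among the constitutive catalytic genes, Psmb6 scored 150 and 85, Psmb7 scored 147 and 83, and Psmb5, the counterpart of Psmb8, scored 138 and 57. Psmb5 was thus the lowest of the 6 genes in both lists, and Psmb9 was the highest in replicate 2 while Psmb6 was the highest in replicate 1. The scores of both sets of 3 overlapped in each list.

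In mean rank, Psmb8 stood at 92.7 and Psmb10 at 91.1, against 96.7 at Psmb6, 95.2 at Psmb7 and 85.8 at Psmb5. The median was 91.9 over the 2 immunoproteasome genes with a shared peak and 95.2 over the 3 constitutive genes, a difference of −3.31. In each list alone, with Psmb9 included, the difference of the median ranks was −0.651 in replicate 1 and −4.37 in replicate 2. When Psmb9 entered with the strongest window of each list, at a mean rank of 97.3, the immunoproteasome median was 92.7 and the difference was −2.51. With a spread of 85.8 to 96.7 among the constitutive genes themselves, the values of both sets interleaved. The immunoproteasome promoters held more peaks than the constitutive ones. The 3 immunoproteasome genes had 12 promoter peaks in replicate 1 and 7 in replicate 2, of which 6 were shared windows. The constitutive genes had 6, 3 and 3. Over all 50 members the counts were 124, 81 and 73. The 7 alpha genes had 13 shared windows and the 4 activator genes 8, while the 3 chaperone genes of the 19S cap had 3. Promoter hotspots covered a median of 2208 bp per immunoproteasome gene in replicate 1 and 626 bp in replicate 2, against 1371 bp and 512 bp per constitutive gene. Psmb8, Psmb9 and Psmb10 have more annotated starts, 6, 7 and 7, than Psmb5, Psmb6 and Psmb7, with 2, 4 and 2, which widens the stretch searched, and the part of this in the peak counts was not tested.

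**Figure D2:**
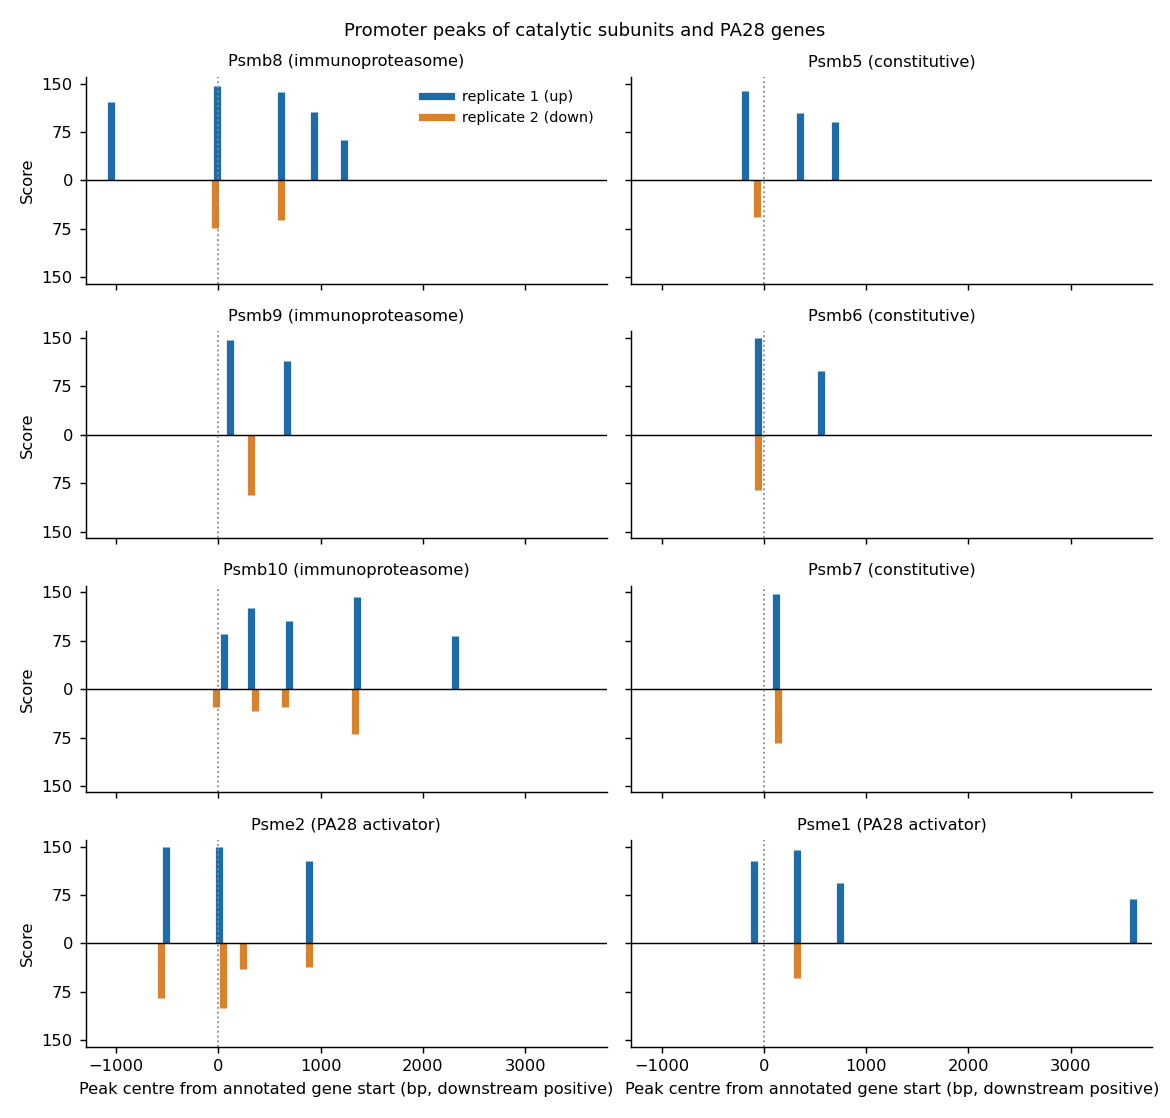
Promoter peaks of the immunoproteasome genes (left, upper 3 panels), the constitutive catalytic genes (right, upper 3 panels) and the PA28 genes (bottom), plotted as peak score (replicate 1 upward, replicate 2 downward) against the distance of the peak centre from the annotated gene start in bp. Psmb8 and Psmb10 show several peaks, and the replicate 1 and replicate 2 peaks of Psmb9 stand 200 bp apart.

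The windows of 5 of the 6 catalytic genes, all but Psmb7, are printed to show what their open promoters hold. They are the mm10 sequences of the strongest shared promoter peak on the strand of the gene, with both windows for Psmb9, and capitals mark matches to the short motifs that are spelled out further below.
Psmb8 (chr17:34197636-34197785, plus strand): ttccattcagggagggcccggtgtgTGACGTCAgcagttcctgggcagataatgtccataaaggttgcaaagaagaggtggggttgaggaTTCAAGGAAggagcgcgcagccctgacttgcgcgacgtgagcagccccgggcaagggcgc
Psmb9, replicate 1 (chr17:34187576-34187725, minus strand): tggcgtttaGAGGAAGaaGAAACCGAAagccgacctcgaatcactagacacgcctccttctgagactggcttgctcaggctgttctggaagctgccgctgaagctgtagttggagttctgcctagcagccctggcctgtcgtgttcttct
Psmb9, replicate 2 (chr17:34187376-34187525, minus strand): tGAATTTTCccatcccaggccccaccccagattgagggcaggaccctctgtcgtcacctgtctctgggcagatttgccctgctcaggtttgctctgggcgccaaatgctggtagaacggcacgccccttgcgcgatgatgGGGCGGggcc
Psmb10 (chr8:105937016-105937165, minus strand): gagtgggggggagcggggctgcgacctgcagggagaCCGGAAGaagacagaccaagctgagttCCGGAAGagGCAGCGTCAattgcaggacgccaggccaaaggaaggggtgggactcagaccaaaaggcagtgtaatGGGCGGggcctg
Psmb5 (chr14:54618136-54618285, minus strand): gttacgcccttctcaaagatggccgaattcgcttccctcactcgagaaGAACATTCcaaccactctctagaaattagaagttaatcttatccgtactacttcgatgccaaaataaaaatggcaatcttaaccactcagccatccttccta
Psmb6 (chr11:70525236-70525385, plus strand): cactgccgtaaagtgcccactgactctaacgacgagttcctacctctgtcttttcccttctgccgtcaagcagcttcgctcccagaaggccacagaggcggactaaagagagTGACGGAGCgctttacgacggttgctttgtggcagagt
The Psmb8 window holds a CREB match, TGACGTCA, and a match to the gamma-activated site (GAS) bound by STAT factors, TTCAAGGAA. The replicate 1 window of Psmb9 holds a match to the motif of the interferon regulatory factors (IRF), GAAACCGAA, beside a PU.1-type ETS match, GAGGAAG. Its replicate 2 window holds a heat shock element match and an SP match. The Psmb10 window carries 2 ETS matches, an SP match and, on the other strand, a match to the core of the antioxidant response element (ARE). Psmb6 also holds an ARE core match, TGACGGAGC, and Psmb5 a heat shock element match, GAACATTC. The printed Psmb5 window is that of replicate 1, and this match lies outside the replicate 2 window, at chr14:54618016-54618165. The printed window had a GC content of 42.0%, the lowest of the 46 members. The replicate 1 and replicate 2 windows of Psmb5 overlapped by 30 bp, the least of any strongest shared peak among the members, whose median overlap was 130 bp.

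Psmb9 was the only member with a promoter peak in each list and no overlapping pair. Its replicate 1 window lay 50 bp away from its replicate 2 window, and their centres were 200 bp apart. Each of the windows lay within a hotspot of the other list. Of the 12760 coding genes with a promoter peak in each list, 105 had no overlapping pair. One of them was Tap1, which encodes a chain of the transporter that carries proteasome-made peptides into the endoplasmic reticulum. Tap1 starts 30 bp from Psmb9 on the other strand, and its strongest promoter peaks are the same windows, with scores of 147 and 94. From Psmb9 to Tap2, over 34.3 kb of chromosome 17 that also holds Psmb8, replicate 1 had 22 peaks and replicate 2 had 6, of which 5 were shared windows. The Tap2 promoter peak, at chr17:34204396-34204545, scored 136 in replicate 1 and 61 in replicate 2.

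Psmb8 and Psmb10 opened at more than 1 place, with 2 and 4 shared promoter peaks. This was not particular to them. Psma1, Psma7, Psmb1 and Psmd4 had 3 each, while other members, such as Psmb6 and Psmb7, had 1. Positions of peak centres are given from a start, negative upstream. The strongest Psmb8 peak was centred at −10.5 bp from the start of the gene record and at −484.5 bp from the RefSeq start, and its other shared peak, at chr17:34198256-34198405, lay at 135.5 bp from the RefSeq start with scores of 137 and 62. At Psmb10 the strongest shared peak lay 1353.5 bp inside the gene, with its centre at −52.5 bp from the start of an internal transcript. The windows nearest its gene start scored less: the pair centred 53.5 bp downstream scored 85 and 28, that at 313.5 bp scored 126 and 34, and that at 693.5 bp scored 105 and 27. With the gene start alone as the promoter, the mean rank of Psmb10 was 67.5 and the difference between the sets was −15.1. The position of Psmb10 in the comparison therefore rests on an internal start.

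In mean rank the PA28 activator genes stood near opposite ends of the range. Psme2, which encodes the beta chain, scored 150 in replicate 1 and 100 in replicate 2 at its start, a mean rank of 99.2 that was exceeded by Psmd5, Psmd8 and Psmd11. It had 2 further shared promoter peaks, with scores of 150 and 85 at −517.5 bp, towards Rnf31, and 128 and 36 within the gene. Psme1, which encodes the alpha chain and lies near Psme2 on chromosome 14, scored 144 and 53, a mean rank of 85.6, and its peak lay at −43.5 bp from the RefSeq start. The low mean rank of Psme1 came from replicate 2, with a percentile rank of 75.8, against 95.5 in replicate 1. By mean rank Psme1 was the lowest and Psme2 the highest of the 4 activator genes, while in replicate 1 Psme4 scored below Psme1. Psme3, which encodes the nuclear activator PA28-gamma, scored 147 and 77, and Psme4, which encodes PA200, scored 141 and 78. Psmf1, which encodes the inhibitor PI31, ranked between Psme1 and Psme4, at 86.6 with scores of 135 and 61.

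No open chromatin was called at the promoters of the tissue-restricted subunits. With the depth unknown, a missing peak does not show that a promoter was closed. Of all coding genes, 70.5% had a promoter peak in replicate 1 and 58.3% in replicate 2. Psma8, which replaces Psma7 in male germ cells, and Psmb11, the catalytic subunit of the thymus cortex, had no promoter peak and no promoter hotspot in either list. Psmb11 starts on chromosome 14 at 54621433, close to Psmb5, which starts at 54618022 and was open. Psme2b also had neither peak nor hotspot, so the 3 members without either in both lists were 2 tissue-restricted genes and a gene copy. Reads that match both Psme2 and its copy could have been lost or split, and the sources used here do not say how they were mapped. Psmc3ip, by contrast, scored 147 and 92.

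The standard alpha and structural beta subunits of the core were open without exception. Of all coding genes, 57.7% had a shared promoter peak, at a median mean rank of 92.8. All 7 alpha genes of the 20S core, whose rings gate the barrel, had a shared promoter peak, with a median mean rank of 95.6. Psma1 was the strongest with scores of 150 and 97 (98.9), and Psma3 the weakest with 143 and 69 (90.8). All 4 genes of the non-catalytic beta subunits were open too, with a median of 97.7. Psmb2 led them with scores of 148 and 101 (98.5), and Psmb4 was lowest with 141 and 80 (92.8).

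The 19S cap genes were likewise open at all 17 subunits, beside the same 57.7% and median of 92.8 for all coding genes. The 6 ATPase genes, which encode the unfolding ring, had a median mean rank of 94.8, from 85.8 at Psmc1 (scores 143 and 54) to 97.4 at Psmc3 (147 and 95). The 11 non-ATPase genes had a median of 96.3. At their top, Psmd11 and Psmd8 both scored 150 in replicate 1 and 101 in replicate 2, a mean rank of 99.3, and Psmd6 was the lowest of all members with scores of 131 and 58 (84.5). Psmd11 encodes a scaffold subunit of the lid, the part of the cap that also holds the deubiquitinase encoded by Psmd14. With 1 value per list, neighbours in this order could not be told apart.

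The assembly chaperones, which build the particles and leave them, followed the subunits. The 3 chaperones of the 19S base ranged from 94.6 at Psmd10 (scores 147 and 80) to 99.6 at Psmd5 (150 and 106), the highest rank of all members. The 4 chaperones of the 20S core had a median of 93.5, close to the 92.8 of all coding genes with a shared promoter peak. These 4 ranged from 89.8 at Psmg2 (141 and 67) to 95.3 at Psmg4 (142 and 91).

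**Figure D3:**
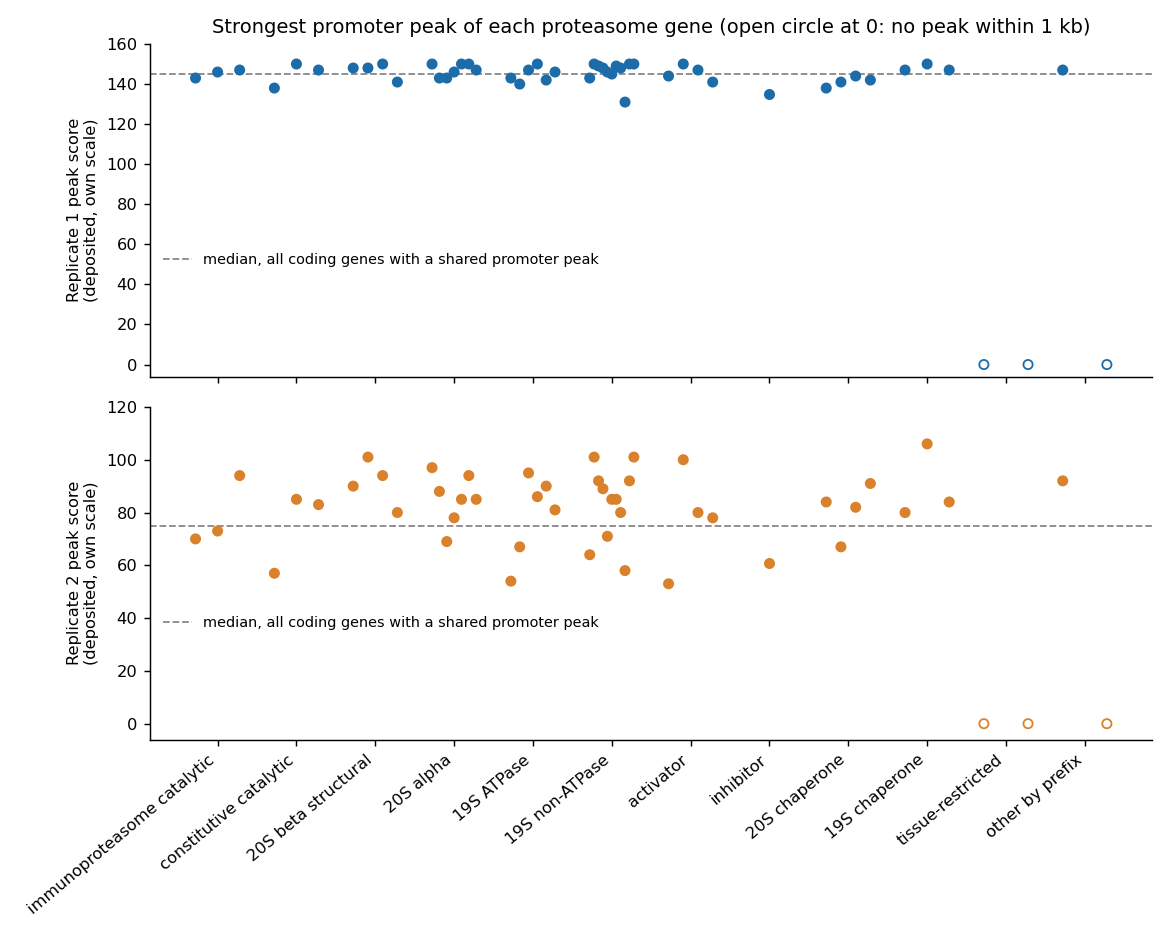
Score of the strongest promoter peak of each of the 50 proteasome genes in replicate 1 (top) and replicate 2 (bottom), by class along the horizontal axis, 1 circle per gene, with the dashed line at the median of all coding genes with a shared promoter peak (145 and 75). Open circles at 0 mark Psma8, Psmb11 and Psme2b, which have no promoter peak, and replicate 1 scores of open members lie between 131 and 150 while replicate 2 scores spread from 53 to 106.

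Other genes of the pathway gave the same picture. Of a list of 14, all but Paaf1 were found in the annotation under that symbol. All 13 had a shared promoter peak, against 57.7% of all coding genes. Their median mean rank was 95.9, against 92.8 over all coding genes with such a peak. The ubiquitin receptor gene Adrm1 scored 149 and 103 (99.1), and the deubiquitinase gene Uchl5 scored 147 and 88. Nfe2l1, which encodes the transcription factor that raises proteasome gene expression when proteasome activity falls, scored 150 and 92 (98.1), and Ddi2, the protease that activates it, scored 146 and 80. The lowest was Ecpas, which encodes a proteasome scaffold, at 137 and 62 (87.4).

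Proteasome peaks lay close to annotated starts. The centre of the strongest shared promoter peak was within 150 bp of an annotated start at 43 of 46 members (93.5%), against 77.6% of coding genes with such a peak. It was more than 500 bp from the start of the gene record at 5 members (10.9%), against 21.5%: Psmd5 at 3917.5 bp, Psmd9 at 58837.5 bp, Psma6 at 14508.5 bp, Psmf1 at 2895.5 bp and Psmb10. For the first 4 of these the peak was near the RefSeq start, between −94.5 bp at Psma6 and 60.5 bp at Psmd9, since their GENCODE records reach further upstream. Psmb10 remained 1301.5 bp downstream of its RefSeq start. The share within 150 bp counts any annotated start of a gene. Members have a median of 5 such starts, against 3 over all coding genes, and the part of this in that share was not tested.

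Several members had an annotated start near a coding start on the other strand. A coding start on the opposite strand, in whichever direction, lay within 1 kb of a member start at 13 of 50 members (26%), against 12.3% of coding genes. Any annotated start of either gene counted, so a pair need not lie at the promoter peak of the member. Members have a median of 5 annotated starts, against 3 over all coding genes, and the part of this in the share was not tested. The closest pairs were Psmb9 with Tap1 at 30 bp and Psmc2 with Dnajc2, a ribosome-associated chaperone gene, at 32 bp. Psmc5 with Ftsj3, and Psma2 with the mitochondrial ribosomal protein gene Mrpl32, were 75 bp apart, and Psma7 with Ss18l1 76 bp. Psmd13 and the mitochondrial deacetylase gene Sirt3 were 99 bp apart, Psma4 and AY074887 106 bp, Psmb1 and Tbp, which encodes the TATA-binding protein, 137 bp, and Psmd1 and Htr2b 145 bp. The wider pairs were Psmd10 with Atg4a at 179 bp, Psmg2 with Cep76 at 263 bp, Psmd5 with Cutal at 450 bp and Psme2 with Rnf31 at 595 bp. Where a peak lies at both starts of a pair, it cannot be assigned to either gene.

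Promoter hotspots covered a median of 1589.5 bp per member in replicate 1 and 793 bp in replicate 2, against 1204 bp and 323 bp per coding gene, where genes without a hotspot count as 0 and lower the median. The upper quartiles were closer, 2183 bp and 969 bp at the members, against 2057 bp and 863 bp. Members have a median of 5 annotated starts, against 3, which widens the stretch searched, and the part of this in the length was not tested. The peak windows had a median GC content of 62.7% and an observed over expected CpG ratio of 0.868, against 65.3% and 0.837.

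The motifs in the 150 bp windows set the proteasome genes beside all coding genes with a shared promoter peak. Each of 16 motifs was searched as an exact match on both strands, where N is any base and matches of different motifs may overlap. The generic ETS motif, CCGGAAG, which many factors of the ETS family recognise, was found in 17 of 46 members (37.0%), against 15.0% of all 12658 windows. Among the 17 subunits of the 19S cap it was found in 10, among them Psmc1, Psmc2, Psmc3, Psmc6, Psmd11 and Psmd12, and among the 16 subunits of the 20S core with a shared peak in 3, Psma6, Psmb7 and Psmb10. SP (GGGCGG) was in 50% of member windows, against 54.7% of all windows, and NF-Y (CCAAT) in 21.7%, against 29.2%. The PU.1-type ETS motif, GAGGAAG, was in 1 member window, that of Psmc2 (2.17%, against 8.94%).

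The ARE core, TGACNNNGC, through which the factors encoded by Nfe2l1 and Nfe2l2 are known to drive proteasome genes, was in 6 windows (13.0%), against 9.18%. These were Psmd1, Psmb2, Psmg2, Psme4, Psmb6 and Psmb10. The IRF motif, GAAANNGAA, was in 5 windows (10.9%), against 3.06%, and these were Psmd4, Psmb3, Psmb4, Psme1 and Psmf1. None of these is a catalytic immunosubunit. Other promoter peaks of the immunosubunit genes held it, namely the shared peak of Psmb8 near its RefSeq start and the Psmb10 peak at 313.5 bp, and the replicate 1 window of Psmb9 as printed above. A further shared peak of the alpha subunit gene Psma3 held it as well. Over all shared promoter peaks, 8 of 73 at the members held it, against 3.41% of 19651 at coding genes. None of the 3 at Psmb5, Psmb6 and Psmb7 did, while the immunosubunit genes had more shared peaks to search, 6.

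The remaining motifs were rare in the member windows. The nuclear respiratory factor 1 motif (GCGCNTGCG) was in 4 (8.70%, against 9.60%), YY1 (AANATGGCG) and GAS (TTCNNNGAA) in 3 each (6.52%, against 3.49% and 2.90%), and CREB (TGACGTCA) in Psmb2 and Psmb8 (4.35%, against 2.86%). The E-box (CACGTG), the heat shock element (GAANNTTC) and the TATA box motif (TATAAA) were in 1 each (2.17%, against 7.38%, 2.37% and 1.93%). C/EBP (TTGCNNAA), NF-kB (GGGANTTTC) and ZNF143 (ACTACANTT) were in 0 of 46 windows, against 4.47%, 0.553% and 1.85%. A match describes letters in a window and does not show a bound factor. The RefSeq promoter stretches of 42 members, from 250 bases before to 50 after the gene start, held the ETS motif in 35.7%, against 9.93% of 27025 genes, and the ARE core in 14.3%, against 14.0%. These stretches have all genes as background, open or not. In them 7 of the 16 motifs lay on the other side of the background than in the peak windows. SP was in 54.8%, against 38.2%, the nuclear respiratory factor 1 motif in 16.7%, against 7.12%, and GAS in 7.14%, against 9.55%. The others that turned were CREB, the E-box, NF-kB and the TATA box motif, each with 4 or fewer matches among the members.

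**Figure D4:**
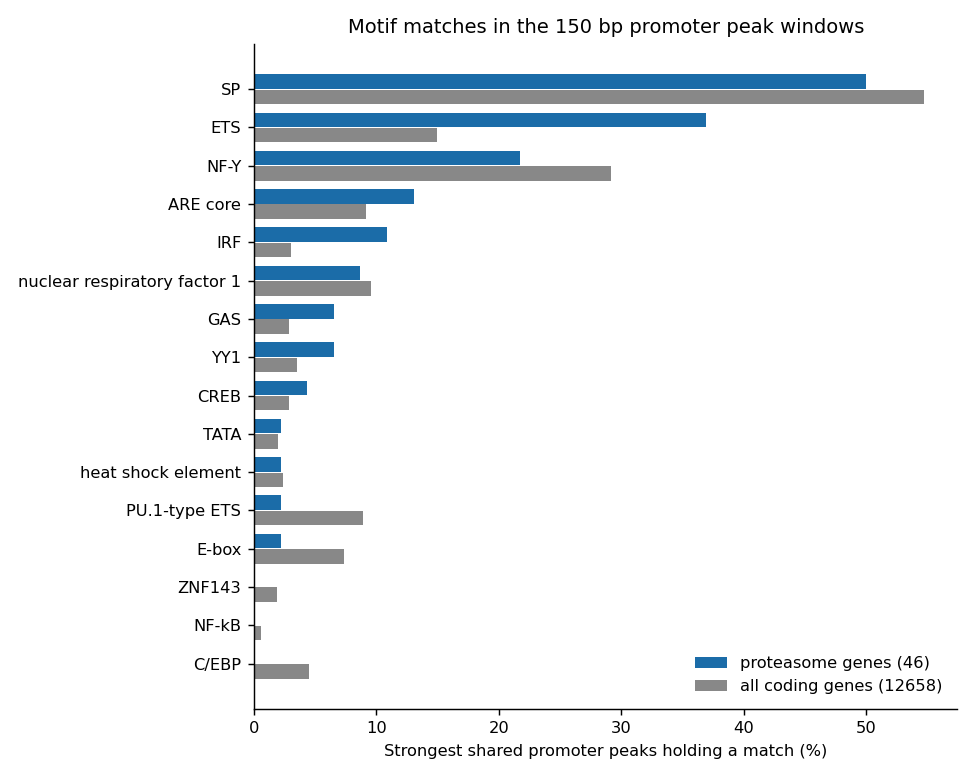
Share of strongest shared promoter peak windows with at least 1 match (%, horizontal axis) for 16 motifs, in 46 proteasome genes (blue) and in 12658 coding genes (grey). The ETS bars are 37.0% and 15.0%, and the SP bars, the longest, are 50% and 54.7%.

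Away from promoters the proteasome genes did not stand apart. Shared peaks that lie outside every coding promoter, in the gene or within 50 kb on either side, had a median of 3 per member, against 3 over all coding genes, with a range of 0 to 20. Replicate 1 alone gave medians of 17.5 per member and 15 over all coding genes, and replicate 2 alone gave 3 and 3. The most were near Psmd9, with 20, and its gene record reaches far upstream of its RefSeq start. Psma6 had 10, Psmc1 8, and Psmc3, Psmd12 and Psmd3 had 7 each. The strongest near Psmc3 scored 145 and 62 and lay in Spi1, the gene of the myeloid factor PU.1, and the strongest near Psmd12 scored 148 and 61 and lay in Pitpnc1. Psmc4, Psmd10 and Psma4 had 0 such peaks. Psmb8 and Psmb9, which are neighbours and share most of the stretch searched, had 5 each and Psmb10 2, against 4 at Psmb5 and 3 each at Psmb6 and Psmb7.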

How the data were processed

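Per the labels, DNase-seq was made from 4 libraries of mouse AML cells, 2 technical libraries for each of 2 biological replicates, which the authors pooled. The deposited peak lists hold windows of 150 bp with a score, and the sources used here give neither how the authors computed that score nor the caller, its settings or the depth. The deposited hotspot lists hold regions with a −log10 q-value, from a q of 0.05 up to a ceiling of 100. Depth being unknown, no interval is given.

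Repeated entries were dropped (48 in replicate 1, 5 in replicate 2), and chromosomes 1 to 19, X and Y were used (236215 and 67438 peaks, 202182 and 61803 hotspots). Coordinates are 1-based on mm10, and all 21 chromosomes fitted the reference lengths. Scores were ranked within a list, ties at their mean, and the ranks of a shared pair were averaged. Genes and starts came from GENCODE M21, RefSeq starts and promoters from the mm10 tables, matched by symbol (42 of 50 members). Python 3.11.15, pandas 2.3.3, numpy 2.4.6 and pysam 0.24.0 were used, and the scripts were tested on simulated peak lists. The members, classes, motifs and gene lists were chosen with earlier results of these data known. Named genes are the catalytic and PA28 genes, the tissue-restricted genes, every member without a shared promoter peak, the strongest and weakest of each class, members with a distant peak or a coding start on the other strand within 1 kb, and the 5 with most peaks outside promoters; Psmd3, tied with the last of these, and other genes of the pathway were named too. Shares of members stand beside shares of all coding genes, with no test. Sequence was printed for the catalytic subunits only, as mm10 reference sequence, and not for Psmb7.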

Additional observations from a re-analysis of the deposited data

How the results depend on the processing

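The count of members with a shared promoter peak was 42 with the gene start alone, against 52.7% of all coding genes. It was 47 with either list alone, against 70.5% of all coding genes for replicate 1 and 58.3% for replicate 2. With an overlap of 75 bp it was 44, against 55.6%, and Psmb5 and Psmg4 lost theirs. The promoter hotspot count was 47 in every setting. The share over all coding genes moved, from 48.5% with hotspots at the ceiling only to 70.9% without replicate 2. The median mean rank fell to 90.9 (88.8 over all coding genes) with both lists at equal length. With 1 list alone it was a median of ranks in that list. That was 93.8 in replicate 2 (89.6 over all coding genes) and 97.4 in replicate 1 (94.9). In the other settings it ran from 95.0 to 95.1, beside 92.4 to 93.8 over all coding genes. The difference between immunoproteasome and constitutive genes kept its sign. It was −15.1 with the gene start alone and −15.1 with starts of protein-coding transcripts only, both through the loss of the internal Psmb10 start, and it ran from −4.37 without replicate 1 to −0.651 without replicate 2. With lists of equal length it was −5.25, and with an overlap of 75 bp −4.08. Asking for a peak in each list without overlap, which was added after seeing the data, gave 47 members (58.2% of all coding genes) and −2.51. The median of shared peaks outside promoters was 1 within 10 kb and 7 within 100 kb (1 and 6 over all coding genes), and counting peaks of a single list it ran from 3 without replicate 1 to 17.5 without replicate 2. In windows of 300 bp, 8 of the 16 motif shares among members stayed within 1.5 times those in the 150 bp windows, and in RefSeq promoters 6 did. The ETS count was 20 of 46 (43.5%, against 20.9%) and 15 of 42. No paired analysis was possible because each replicate is 1 pooled list and no result comes from a test. Unknown depth and the shorter replicate 2 list limit what a missing peak can show.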
